A study of Homo sapiens with 12 samples.

Results

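The genes described here are 5 human metallothionein genes (MT2A, MT1E, MT1F, MT1G and MT1X), the zinc sensor gene MTF1 and the zinc transporter genes SLC30A1 and SLC39A10. They were chosen by symbol, and all 8 were found in the deposited table of 57730 genes. PolyA RNA was sequenced from LM3 cells, a line that was derived from MDA-MB-231 human breast cancer cells and spreads to lung. The 12 libraries formed 4 groups of 3: cells with a hairpin RNA against ACSL5 treated with palmitic acid (shACSL5_PA), cells with a control hairpin treated with palmitic acid (shControl_PA), and the same 2 kinds of cells without palmitic acid (shACSL5 and shControl). ACSL5 encodes an enzyme that activates long-chain fatty acids for use in the cell. All groups therefore come from 1 cell line and carry a hairpin. The hairpin sequences, the dose, the duration and the vehicle of palmitic acid, any clonal selection and the origin of the replicates (separate cultures or not) are not stated in the labels. The p-values thus reflect the spread among these libraries alone, which can be purely technical.

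Metallothioneins are small cysteine-rich proteins that bind zinc, copper and cadmium, and in cells they buffer free zinc. When free zinc rises, the transcription factor MTF1 binds it, enters the nucleus and switches on metallothionein genes and SLC30A1 through short DNA motifs called metal response elements. SLC30A1 (ZnT1) carries zinc out of the cell across the plasma membrane, and SLC39A10 (ZIP10) carries zinc in. MTF1 is known to repress the mouse Slc39a10 gene. Breast cancer cells are known to differ widely in which metallothionein genes they express, and metallothionein genes also respond to glucocorticoids.

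The 5 metallothionein genes lie in 1 cluster on chromosome 16 (GRCh38, GENCODE 29). MT2A (ENSG00000125148) spans 56608199 to 56609497, MT1E (ENSG00000169715) 56625475 to 56627112, MT1F (ENSG00000198417) 56657694 to 56660698 and MT1X (ENSG00000187193) 56682424 to 56684196, all on the plus strand. MT1G (ENSG00000125144) spans 56666731 to 56668065 on the minus strand. MTF1 (ENSG00000188786, 37809567 to 37859620) and SLC30A1 (ENSG00000170385, 211571568 to 211578742) lie on the minus strand of chromosome 1, and SLC39A10 (ENSG00000196950, 195575977 to 195737702) on the plus strand of chromosome 2. All are protein-coding.

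Promoters of 5 of the 8 genes (MT2A, MT1X, MTF1, SLC30A1 and SLC39A10) were taken from RefSeq on GRCh38.p14, 250 bases before to 50 after the annotated start. The core of the metal response element was searched on both strands as TGCACNC and TGCGCNC. Over 35116 promoters of the same length, 29.6% held at least 1 match, 8.60% at least 2, 2.30% at least 3 and 0.601% at least 4. MT2A held 8 matches, a number reached by 0.0199% of promoters, MT1X held 4 and SLC30A1 held 2, and no matches overlapped. MTF1 held 0, and of the 2 SLC39A10 promoters 1 held 0 and the other 1. With the knockdown MT2A and SLC30A1 fell and MT1X rose, and the windows of these genes are shown because each held at least 2 matches. They are written 5′ to 3′ on the strand of the gene, with the matches on either strand in capitals. The SLC30A1 window lies upstream of the start of the gene in GENCODE 29, since RefSeq places the start farther out. The MT2A window and the 2 SLC39A10 windows lie inside the GENCODE 29 span of their gene, downstream of its start.
MT2A promoter (chr16:56608334-56608633, plus strand): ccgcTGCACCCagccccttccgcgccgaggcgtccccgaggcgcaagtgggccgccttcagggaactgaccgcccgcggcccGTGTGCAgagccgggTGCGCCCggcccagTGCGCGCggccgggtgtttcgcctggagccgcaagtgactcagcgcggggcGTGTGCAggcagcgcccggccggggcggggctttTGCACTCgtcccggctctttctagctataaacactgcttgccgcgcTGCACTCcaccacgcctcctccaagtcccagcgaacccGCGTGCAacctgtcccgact
MT1X promoter (chr16:56682220-56682519, plus strand): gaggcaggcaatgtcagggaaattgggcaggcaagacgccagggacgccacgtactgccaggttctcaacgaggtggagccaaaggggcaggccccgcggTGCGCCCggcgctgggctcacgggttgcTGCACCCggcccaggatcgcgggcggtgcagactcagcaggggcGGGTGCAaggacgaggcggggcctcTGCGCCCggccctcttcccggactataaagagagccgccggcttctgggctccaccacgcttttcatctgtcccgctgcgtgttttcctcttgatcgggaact
SLC30A1 promoter (chr1:211579112-211579411, minus strand): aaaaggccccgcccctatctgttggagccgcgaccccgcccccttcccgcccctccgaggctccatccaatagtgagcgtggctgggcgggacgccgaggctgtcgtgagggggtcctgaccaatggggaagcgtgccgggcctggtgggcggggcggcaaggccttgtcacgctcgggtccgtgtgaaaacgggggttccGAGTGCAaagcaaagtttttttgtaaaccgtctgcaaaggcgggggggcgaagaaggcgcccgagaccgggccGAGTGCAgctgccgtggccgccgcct

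Library totals ran from 16788694 to 21814751 counts. The mesenchymal and MDA-MB-231 markers VIM, CD44, AXL, CAV1 and MSN were all at 318 CPM (read counts relative to the scaled library total) or more in every library, while the luminal receptor genes ESR1 and PGR reached at most 0.439 CPM and the epithelial gene CDH1 at most 0.137 CPM. The other 5 genes of the same list of 8 luminal or epithelial markers were over 1 CPM, with KRT8 at 187 to 309 CPM, KRT18 at 165 to 224 CPM, FOXA1 at 6.22 to 7.90 CPM, GATA3 at 4.89 to 9.44 CPM and EPCAM at 1.69 to 5.09 CPM. That list summed to 380 to 416 CPM in shACSL5_PA, against 455 to 476 CPM in shControl_PA, and to 375 to 405 CPM in shACSL5, against 525 to 551 CPM in shControl. Of immune genes, PTPRC reached at most 0.369 CPM and CD14 at most 0.651 CPM in any library, and CD3E was at 0. Adipocyte markers summed to at most 0.842 CPM, with ADIPOQ and LEP at 0. Fibroblast markers summed to 7.43 to 8.38 CPM in shACSL5_PA, against 4.05 to 5.45 CPM in shControl_PA. Without palmitate they summed to 12.9 to 14.7 CPM in shACSL5, against 9.50 to 10.8 CPM in shControl. Endothelial markers summed to 1.26 to 1.83 CPM in shACSL5_PA, against 2.07 to 2.75 CPM in shControl_PA. Without palmitate they summed to 1.56 to 1.79 CPM in shACSL5, against 3.58 to 5.87 CPM in shControl. Of 4 lung epithelial genes SFTPC and SCGB1A1 were at 0 and SFTPB reached at most 0.169 CPM, while NKX2-1 stood at 25.7 to 44.7 CPM. These 4 summed to 25.7 to 28.0 CPM in shACSL5_PA, against 36.2 to 40.9 CPM in shControl_PA, and to 36.2 to 37.6 CPM in shACSL5, against 42.7 to 44.8 CPM in shControl. The 5 MDA-MB-231 markers summed to 5337 to 5589 CPM in shACSL5_PA, against 6530 to 6738 CPM in shControl_PA, and to 5450 to 5632 CPM in shACSL5, against 7128 to 7388 CPM in shControl, and the part of these marker shifts in the results was not tested. ACSL5 stood at 14.9, 13.3 and 17.6 CPM in shACSL5_PA, against 189, 194 and 190 CPM in shControl_PA, so that 8.01% of its RNA remained under palmitate. Without palmitate it stood at 10.9, 10.2 and 12.5 CPM in shACSL5, against 142, 143 and 145 CPM in shControl, so that 7.82% remained. An exact permutation test (2-sided) returned p = 0.1 for each pair, and 3 libraries against 3 allow no smaller value.

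Levels below are CPM scaled with trimmed mean of M values (TMM) factors, and each change is a log2 ratio given with its standard error (SE). A gene was called when edgeR's quasi-likelihood test over 14706 genes gave an adjusted p under 0.05 (Benjamini-Hochberg). In bulk RNA, a shift in the make-up of the cell population and a change in RNA per cell cannot be told apart. Of the 8 genes 7 passed the filter on low counts. MT1G was at 0 counts in all 12 libraries, and 3 counts would be 0.138 to 0.179 CPM in a library, so MT1G RNA below about that level was not detectable at this depth.

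Metallothionein RNA in these cells was mostly MT2A. In shControl, per kilobase of GENCODE 29 exons, MT2A stood at 604 ± 23.3 CPM, MT1E at 131 ± 8.12 CPM, MT1X at 18.6 ± 0.414 CPM and MT1F at 1.62 ± 0.285 CPM (SD, n = 3 libraries). On the same per-kilobase scale SLC39A10 stood at 15.5 ± 0.964 CPM, SLC30A1 at 9.98 ± 0.489 CPM and MTF1 at 4.93 ± 0.1001 CPM. Exon bases were pooled over all annotated transcripts of a gene. For MT2A (1299 bases) and MT1X (1773 bases) they cover the whole span of the gene. Per-kilobase levels can therefore lie below those of the spliced RNA, by a factor that differs between genes. Of the 13 other metallothionein genes and pseudogenes looked for, 12 were in the table, and none passed the filter. MT1B and the pseudogene MT1XP1 had 2 counts each over all libraries, MT3 had 1 and the other 9 had 0. Thus 3 metallothionein genes, MT2A, MT1E and MT1X, were measured well, MT1F rested on 24 to 65 counts per library, and MT1G and its other relatives were at or near 0.

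With the knockdown, read to ask what changes with loss of ACSL5, the metallothionein genes moved in opposite directions. MT2A fell, MT1X rose, and MT1E rose without palmitate. Whether these changes come from loss of ACSL5, another effect of the hairpin or clonal selection was not tested. The largest change of the set was in the importer SLC39A10, whose RNA was about halved in knockdown cells, and the exporter SLC30A1 fell too. Without palmitate, 3 of the 7 measured genes were called higher and 3 lower, where 62.3% of all genes tested were called (29.7% higher and 32.6% lower). Under palmitate, 1 was called higher and 3 lower, where 50.5% of all genes were called (24.4% higher and 26.1% lower). The median of the 7 log2 changes was -0.30 without palmitate and 0.06 under it, beside medians of -0.02 and 0.00 over all genes tested, and the median size of the changes was 0.45 and 0.30 beside 0.35 and 0.25 over all genes. Libraries of the 2 groups did not overlap for 5 of the 7 genes under palmitate, 2 higher and 3 lower, where 56.9% of all genes did not overlap (27.4% higher and 29.5% lower). Without palmitate they did not overlap for 6 of the 7, 3 higher and 3 lower, where 66.1% of all genes did not (31.6% higher and 34.5% lower).

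MT2A is the most widely expressed human metallothionein gene. Its level was 686, 717 and 749 CPM in shACSL5_PA, against 894, 891 and 858 CPM in shControl_PA. Without palmitate it was 547, 545 and 582 CPM in shACSL5, against 751, 795 and 808 CPM in shControl. Every knockdown library lay below every control library of the same treatment. The log2 change was -0.30 under palmitate (SE 0.03, adjusted p = 1.58e-07) and -0.49 without it (SE 0.03, adjusted p = 2.07e-11).

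MT1X, which encodes another copper- and zinc-binding isoform, moved the other way. It stood at 60.4, 52.3 and 56.5 CPM in shACSL5_PA, against 41.3, 37.8 and 41.6 CPM in shControl_PA. Without palmitate it stood at 53.8, 55.0 and 51.5 CPM in shACSL5, against 32.5, 33.9 and 32.8 CPM in shControl. The groups did not overlap in either pair, and the change was 0.49 under palmitate (SE 0.06, adjusted p = 4.77e-07) and 0.69 without it (SE 0.06, adjusted p = 1.33e-09). Exons of MT1X overlap the same-strand gene AC026461.1, which was at 0 in every library, over 18.1% of their bases, and the labels do not state how reads there were counted.

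MT1E, a further zinc-binding isoform, was at 184, 191 and 202 CPM in shACSL5_PA, against 184, 191 and 178 CPM in shControl_PA, and these libraries overlapped (log2 0.06, SE 0.04, adjusted p = 0.232). Without palmitate it was at 163, 164 and 162 CPM in shACSL5, against 128, 144 and 142 CPM in shControl, with all 3 knockdown libraries higher (log2 0.24, SE 0.04, adjusted p = 4.63e-05). MT1F, the low member, was at 2.79, 2.33 and 2.53 CPM in shACSL5_PA, against 2.19, 2.25 and 2.29 CPM in shControl_PA, with no overlap. Without palmitate, where the groups overlapped, it was at 2.98, 1.42 and 2.21 CPM in shACSL5, against 3.53, 2.47 and 3.16 CPM in shControl. MT1F passed the test in neither pair (log2 0.19, SE 0.25, adjusted p = 0.574 under palmitate and log2 -0.45, SE 0.25, adjusted p = 0.123 without it). Without shACSL5 replicate 1, the highest of its group, the second value became -0.74 (SE 0.27, adjusted p = 0.0256, and 0.0256 to 0.444 over all alternatives), and without shACSL5 replicate 2, the lowest, it became -0.23 (adjusted p = 0.444).

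**Figure D1:**
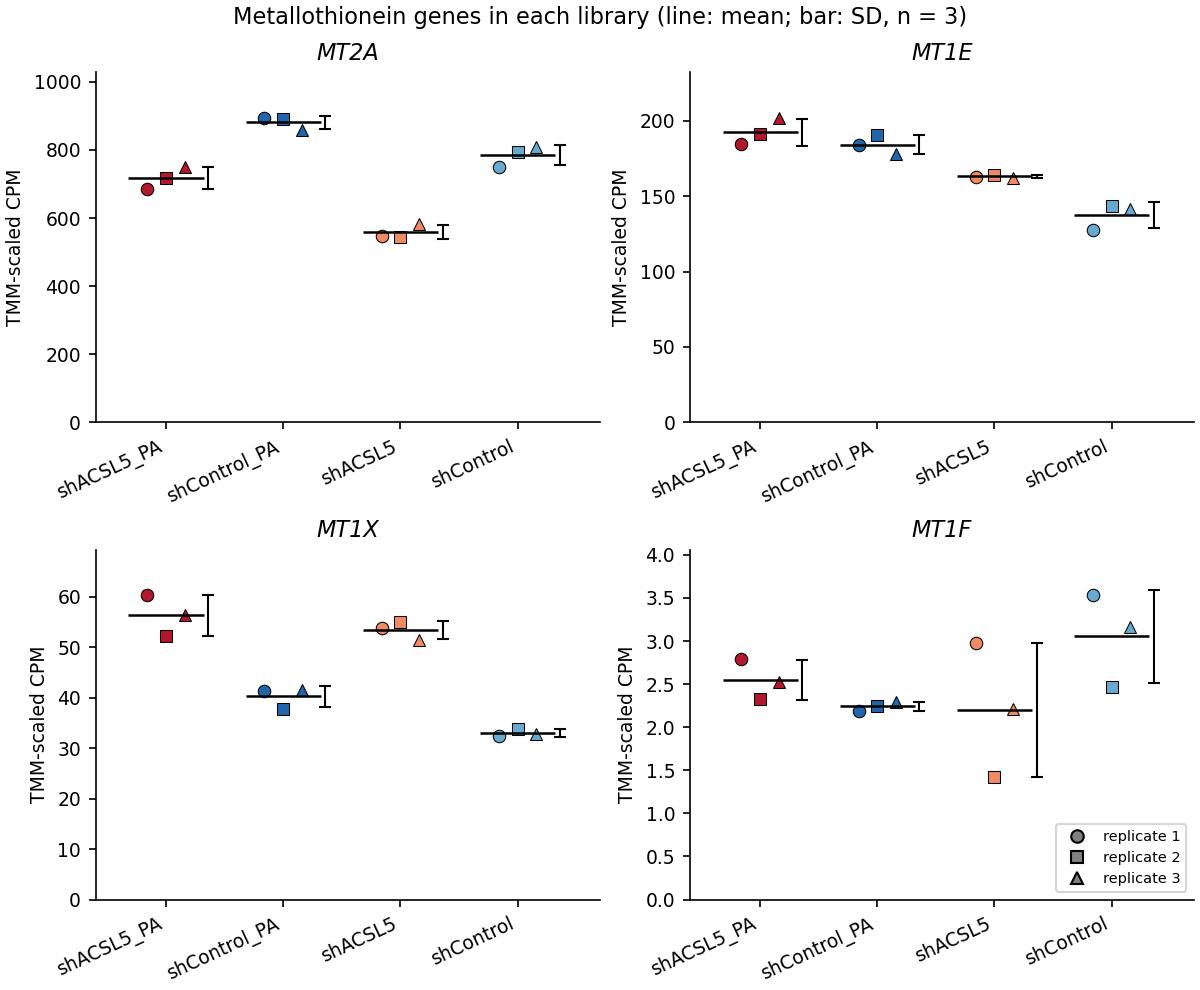
TMM-scaled CPM (y axis, from 0) of MT2A, MT1E, MT1X and MT1F in each of the 12 libraries, by group (x axis); symbols mark replicates, lines the group mean and bars the SD (n = 3). MT2A was lowest in shACSL5, at 558 ± 20.6 CPM, and highest in shControl_PA, at 881 ± 19.98 CPM, while MT1X was highest in the knockdown groups, at 56.4 ± 4.05 CPM in shACSL5_PA and 53.4 ± 1.75 CPM in shACSL5.

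These opposite moves changed the make-up of the metallothionein RNA, a measure that does not depend on how libraries are scaled. MT2A gave 74.0 ± 0.509% of the reads of the 5 genes in shACSL5_PA, against 79.5 ± 0.172% in shControl_PA, and 71.8 ± 0.968% in shACSL5, against 81.9 ± 0.284% in shControl (SD, n = 3 each). MT1X gave 5.83 ± 0.558% in shACSL5_PA, against 3.64 ± 0.245% in shControl_PA, and 6.89 ± 0.378% in shACSL5, against 3.45 ± 0.114% in shControl. For every 100 MT2A reads there were 9.83, 10.1 and 8.86 MT1X reads in shACSL5, against 4.33, 4.26 and 4.06 in shControl. MT1E reads per 100 MT2A reads numbered 29.8, 30.2 and 27.9 in shACSL5, against 17.0, 18.1 and 17.5 in shControl. The 2 groups did not overlap in either ratio. Under palmitate there were 8.80, 7.28 and 7.55 MT1X reads per 100 MT2A reads in shACSL5_PA, against 4.62, 4.25 and 4.85 in shControl_PA.

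**Figure D2:**
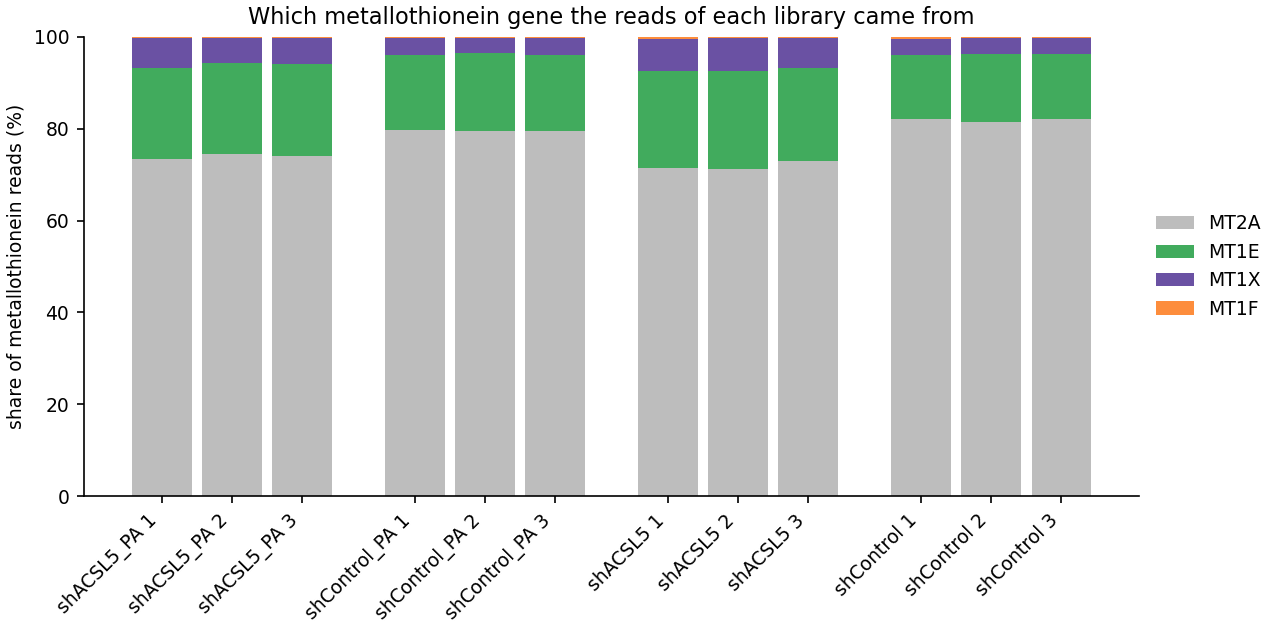
Share of the summed metallothionein reads (y axis, percent, from 0) that came from MT2A, MT1E, MT1X and MT1F in each library (x axis); MT1G had no reads. MT2A took 71.2 to 74.5% in the 6 knockdown libraries and 79.4 to 82.1% in the 6 control libraries.

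The summed level of the 5 genes was 969 ± 38.4 CPM in shACSL5_PA, against 1108 ± 23.9 CPM in shControl_PA, and 777 ± 18.1 CPM in shACSL5, against 958 ± 38.5 CPM in shControl (SD, n = 3 each). The ratio of these means was 0.875 with the knockdown under palmitate and 0.810 without it. Since related genes can exchange reads, shared sequence was counted against GENCODE 29 transcripts of other genes. All annotated transcripts of a gene were pooled and only exact matches counted, so the shares can understate the likeness of the spliced RNAs. Of the 50-base windows, 3.02% for MT2A, 7.10% for MT1E, 1.22% for MT1F, 18.3% for MT1X and 16.5% for MT1G occurred elsewhere. Of the 100-base windows, 0% did for MT2A, MT1E, MT1F and MT1G and 11.3% for MT1X, all of them in AC026461.1. The labels state neither the read length nor the treatment of reads with several alignments, and an exchange of reads between MT2A and MT1X was not tested.

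SLC39A10, the zinc importer ZIP10, changed by the largest factor. It stood at 52.8, 58.5 and 49.7 CPM in shACSL5_PA, against 98.6, 100.3 and 97.6 CPM in shControl_PA. Without palmitate it stood at 57.1, 54.9 and 49.7 CPM in shACSL5, against 114, 106 and 101 CPM in shControl. No knockdown library came near a control library, and the change was -0.88 under palmitate (SE 0.06, adjusted p = 3.76e-11) and -0.99 without it (SE 0.06, adjusted p = 1.64e-12). Of all genes tested, 91.9% under palmitate and 88.3% without it changed by no more than this. In the same order, the shares were 75.9% and 77.6% for MT1X, 56.2% and 64.6% for MT2A and 65.4% and 43.6% for SLC30A1. They were 37.9% and 60.8% for MT1F, 13.9% and 36.4% for MT1E and 20.8% and 24.1% for MTF1.

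SLC30A1, the exporter and a known target of MTF1, stood at 33.9, 31.6 and 32.9 CPM in shACSL5_PA, against 41.8, 43.6 and 41.8 CPM in shControl_PA. Without palmitate it stood at 42.9, 48.9 and 41.8 CPM in shACSL5, against 56.7, 55.6 and 51.6 CPM in shControl. Again no library of the groups overlapped, and SLC30A1 fell by 0.37 on the log2 scale under palmitate (SE 0.06, adjusted p = 4.90e-05) and by 0.30 without it (SE 0.06, adjusted p = 0.000217). MTF1, the zinc-sensing transcription factor, was at 35.0, 43.3 and 36.4 CPM in shACSL5_PA, against 36.9, 33.9 and 36.5 CPM in shControl_PA, where the groups overlapped (log2 0.09, SE 0.07, adjusted p = 0.272). Without palmitate it was at 44.0, 45.3 and 43.3 CPM in shACSL5, against 38.9, 40.5 and 39.3 CPM in shControl, a rise of 0.16 (SE 0.07, adjusted p = 0.0465). That call for MTF1 was close to the threshold, and 11 of 20 alternatives lost it, among them scaling by library size alone (0.13, adjusted p = 0.0919, and 0.0110 to 0.120 over the alternatives). It was also lost on leaving out any 1 of the shACSL5 or shControl libraries.

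**Figure D3:**
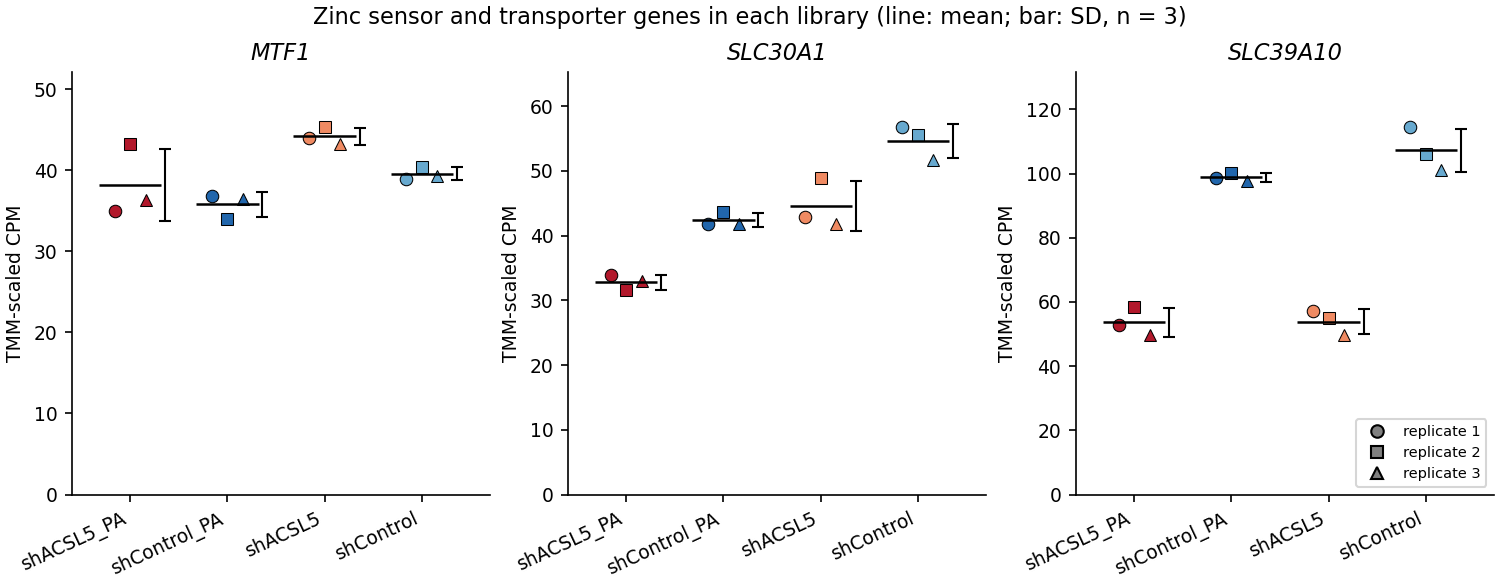
TMM-scaled CPM (y axis, from 0) of MTF1, SLC30A1 and SLC39A10 in each of the 12 libraries, by group (x axis); symbols mark replicates, lines the group mean and bars the SD (n = 3). SLC39A10 stood at 53.6 ± 4.47 CPM in shACSL5_PA and 98.8 ± 1.36 CPM in shControl_PA, and SLC30A1 was lowest in shACSL5_PA, at 32.8 ± 1.16 CPM, and highest in shControl, at 54.6 ± 2.68 CPM.

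Palmitate, the saturated fatty acid that ACSL5 can activate, went with a rise of MT2A and MT1E and a fall of SLC30A1 in both kinds of cells. In knockdown cells 2 of the 7 measured genes were called higher and 2 lower, where 21.9% of all genes were called (12.1% higher and 9.78% lower). In control cells 3 were called higher and 1 lower, where 28.7% were called (15.1% higher and 13.5% lower). Of all called genes, 55.3% were higher in knockdown cells (44.98% with upper-quartile factors) and 52.8% in control cells (35.9% with library size alone). Libraries did not overlap for 4 of the 7 genes in knockdown cells, 2 higher and 2 lower, where 35.5% of all genes did not (18.8% higher and 16.6% lower). In control cells they did not overlap for 7 of the 7, 3 higher and 4 lower, where 41.9% of all genes did not (21.1% higher and 20.8% lower). The median of the 7 changes was 0.08 in knockdown cells and -0.12 in control cells, beside 0.01 and 0.00 over all genes. The median size of the changes was 0.21 and 0.29, beside 0.14 and 0.16 over all genes. The comparisons share groups: each palmitate response uses samples of both knockdown comparisons, so their values stand side by side here and are not independent of each other.

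With the per-library values given above, MT2A rose with palmitate by 0.36 in knockdown cells (SE 0.03, adjusted p = 9.05e-08) and by 0.17 in control cells (SE 0.03, adjusted p = 0.000691). MT1E rose by 0.24 in knockdown cells (SE 0.04, adjusted p = 0.000339) and by 0.42 in control cells (SE 0.04, adjusted p = 1.89e-07). MT1X stood at 0.08 in knockdown cells (SE 0.06, adjusted p = 0.380), where the groups overlapped, and rose by 0.29 in control cells (SE 0.06, adjusted p = 0.00159), where they did not. The summed metallothionein level was 1.25 times as high with palmitate in knockdown cells and 1.16 times as high in control cells. With both the knockdown and palmitate it was 1.01 times that of shControl, although MT2A took 74.0% of the reads in shACSL5_PA and 81.9% in shControl.

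MT1F stood at 0.19 in knockdown cells (SE 0.25, adjusted p = 0.649) and at -0.44 in control cells (SE 0.25, adjusted p = 0.202), and passed the test in neither. The value in knockdown cells turned with 1 library, to -0.03 without shACSL5 replicate 2 (adjusted p = 0.950) and 0.48 without shACSL5 replicate 1 (adjusted p = 0.259). SLC30A1 fell by 0.44 in knockdown cells (SE 0.06, adjusted p = 3.17e-05) and by 0.36 in control cells (SE 0.06, adjusted p = 0.00011). All 3 treated libraries lay below all 3 untreated ones in both kinds of cells, while MT2A and MT1E rose in both. MTF1 itself fell by 0.21 in knockdown cells (SE 0.07, adjusted p = 0.0300), a call lost without shACSL5 replicate 1, 2 or 3 and without shACSL5_PA replicate 1 or 3 (-0.22 to -0.15, adjusted p = 0.0510 to 0.180). In control cells MTF1 was at -0.14 (SE 0.07, adjusted p = 0.131). SLC39A10 stood at -0.01 with palmitate in knockdown cells (SE 0.06, adjusted p = 0.953) and at -0.12 in control cells (SE 0.06, adjusted p = 0.130).

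**Figure D4:**
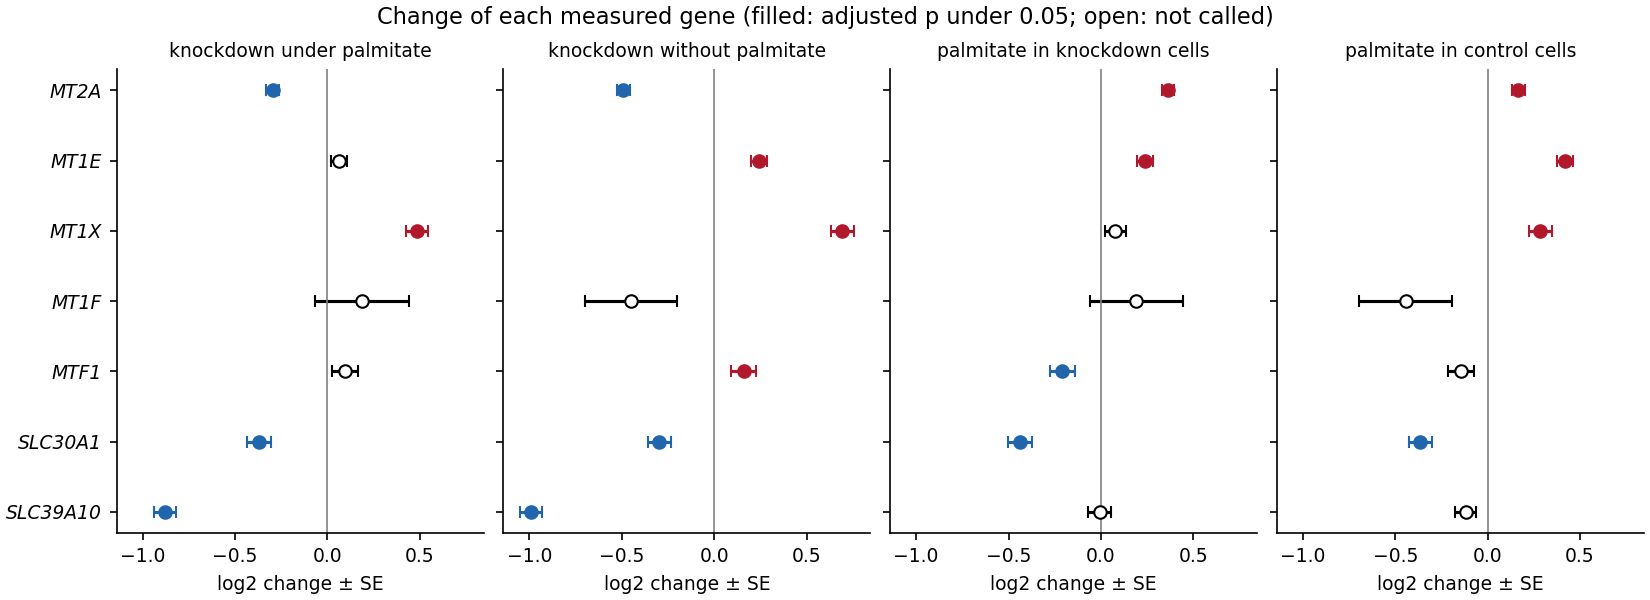
Log2 change (x axis) with its SE (bars) of the 7 measured genes (y axis) in the 4 comparisons from edgeR's test; red marks higher, blue lower, and open black circles genes not called. MT2A lay left of 0 and MT1X right of 0 in both knockdown comparisons, and SLC30A1 lay left of 0 in all 4.

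The response to palmitate was compared between knockdown and control cells with an interaction term, for which 14.5% of all genes were called (7.15% higher and 7.39% lower, and 59.9% of the calls higher with library size alone, against 49.2% here). Of the 7 measured genes 1 was called, MT2A, whose rise with palmitate was larger in knockdown than in control cells by 0.20 (SE 0.05, adjusted p = 0.00781). For MT1E the rise was smaller in knockdown cells by a value that missed the threshold (-0.18, SE 0.06, adjusted p = 0.0521). In 10 of 19 alternatives that value passed it (adjusted p = 0.0213 to 0.159 over the alternatives). The other 5 genes were not called, with MT1X at -0.21 (SE 0.09, adjusted p = 0.116), MT1F at 0.63 (SE 0.36, adjusted p = 0.263), SLC39A10 at 0.11 (SE 0.08, adjusted p = 0.432), SLC30A1 at -0.07 (SE 0.09, adjusted p = 0.651) and MTF1 at -0.06 (SE 0.10, adjusted p = 0.725).

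Read across the 4 groups, the members had different orders of level. MT2A ran shControl_PA, shControl, shACSL5_PA and shACSL5 from high to low, with no overlap between neighbours. MT1E ran shACSL5_PA, shControl_PA, shACSL5 and shControl, and only its first 2 groups overlapped. MT1X ran shACSL5_PA, shACSL5, shControl_PA and shControl, and again only the first 2 overlapped. SLC30A1 ran shControl, shACSL5, shControl_PA and shACSL5_PA, with its middle 2 groups overlapping, and SLC39A10 ran shControl, shControl_PA, shACSL5 and shACSL5_PA, with its last 2 overlapping. MTF1 was highest in shACSL5, above shControl, which overlapped shACSL5_PA, which overlapped shControl_PA. Pearson's r of log2 CPM was taken as a description over the 12 libraries, which fall into the 4 groups. It was -0.64 between MT2A and MT1X, 0.12 between MT2A and MT1E and 0.64 between MT1E and MT1X. It was -0.95 between MT1X and SLC39A10, -0.87 between MT1E and SLC30A1 and -0.76 between MT2A and MTF1. It was 0.75 between MT2A and SLC39A10, -0.76 between MT1X and SLC30A1 and 0.66 between SLC30A1 and SLC39A10. The other pairs of measured genes lay between -0.48 and 0.31.

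Among 10937 other genes with a mean of at least 5 CPM, those most like MT2A over the 12 libraries were CAT, NAV2, ENO2, HAT1 and CLIC1, with r of 0.99, 0.99, 0.99, 0.99 and 0.98. CAT encodes catalase, which breaks down hydrogen peroxide, and ENO2 a glycolytic enolase. Those most like SLC30A1 were FEM1C, TMEM156, BCL6, CLK1 and CLK4, with r of 0.98, 0.97, 0.96, 0.96 and 0.96. CLK1 and CLK4 encode kinases of splicing factors and BCL6 a transcriptional repressor. These likenesses rest on the same 4 groups and carry no test.

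Other zinc transporter genes were read in the same fit. ZIP (SLC39A) proteins bring zinc into the cytosol and ZnT (SLC30A) proteins take it out, into organelles or out of the cell. Of 13 other ZIP genes 10 passed the filter. Of these 10, 7 were called higher and 2 lower with the knockdown under palmitate. Of all genes, 50.5% were called there (24.4% higher and 26.1% lower). Without palmitate 7 were called higher and 1 lower, where 62.3% of all genes were called (29.7% higher and 32.6% lower). The median log2 change of the 10 was 0.20 under palmitate and 0.33 without it. SLC39A10 fell while most of its measured family rose. Under palmitate the rises included SLC39A1 (ZIP1, a plasma membrane importer) by 0.43 (SE 0.04, adjusted p = 1.38e-08) and SLC39A13 (ZIP13, an intracellular carrier) by 0.49 (SE 0.06, adjusted p = 1.06e-06). SLC39A4 (ZIP4, the intestinal zinc importer) rose there by 0.60 (SE 0.08, adjusted p = 3.00e-06) and SLC39A14 (ZIP14, which also carries iron and manganese) by 0.19 (SE 0.03, adjusted p = 1.87e-05).

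Without palmitate SLC39A4 stood at 23.1 CPM in shACSL5, against 13.0 CPM in shControl (log2 0.83, SE 0.08, adjusted p = 7.90e-09). SLC39A1 rose by 0.48 (SE 0.04, adjusted p = 1.47e-09), SLC39A14 by 0.30 (SE 0.03, adjusted p = 9.04e-09) and SLC39A8 (ZIP8, a zinc and manganese carrier) by 0.46 (SE 0.05, adjusted p = 3.17e-08). With palmitate in knockdown cells 0 of the ZIP genes were called higher and 1 lower, SLC39A4, which fell by 0.31 (SE 0.08, adjusted p = 0.00621). Of all genes, 21.9% were called there (12.1% higher and 9.78% lower). In control cells 3 were called higher and 0 lower, where 28.7% of all genes were called (15.1% higher and 13.5% lower). SLC39A8 rose by 0.27 (SE 0.05, adjusted p = 0.000275), SLC39A7 (ZIP7, of the endoplasmic reticulum) by 0.13 (SE 0.04, adjusted p = 0.0154) and SLC39A14 by 0.10 (SE 0.03, adjusted p = 0.0167). The call of SLC39A7 was lost with library size alone and without shControl replicate 1 or shControl_PA replicate 1 or 3 (0.08 to 0.12, adjusted p = 0.0551 to 0.116, and from 0.00362 over all alternatives). That of SLC39A14 was lost with library size alone and without shControl replicate 1 or shControl_PA replicate 2 (0.05 to 0.09, adjusted p = 0.0614 to 0.211, and from 0.00242 over all alternatives).

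Of 9 other ZnT genes 6 passed the filter. With the knockdown 1 was called higher and 3 lower under palmitate, where 50.5% of all genes were called (24.4% higher). Without palmitate 2 were called higher and 3 lower, where 62.3% of all genes were called (29.7% higher). The median log2 change of the 6 was -0.16 under palmitate and -0.11 without it. SLC30A9, which encodes a zinc transporter of mitochondria, stood at 30.6 CPM in shACSL5_PA, against 75.1 CPM in shControl_PA (log2 -1.30, SE 0.06, adjusted p = 1.53e-13). Without palmitate it stood at 25.2 CPM in shACSL5, against 75.7 CPM in shControl (log2 -1.58, SE 0.07, adjusted p = 2.79e-15). SLC30A7 (ZnT7, of the Golgi) fell by 0.28 under palmitate (SE 0.05, adjusted p = 7.45e-05) and by 0.37 without it (SE 0.05, adjusted p = 1.63e-06). SLC30A6, which forms a pair with ZnT5 in the secretory pathway, rose by 0.29 under palmitate (SE 0.07, adjusted p = 0.000624) and by 0.50 without it (SE 0.07, adjusted p = 6.99e-07). SLC30A4, of endosomal vesicles, fell by 0.35 under palmitate (SE 0.12, adjusted p = 0.0190) and by 0.78 without it (SE 0.12, adjusted p = 5.96e-06). The call of SLC30A4 under palmitate was lost with DESeq2 and without shACSL5_PA replicate 1 or 3 or shControl_PA replicate 1 or 2 (-0.35 to -0.31, adjusted p = 0.0513 to 0.0732).

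**Figure D5:**
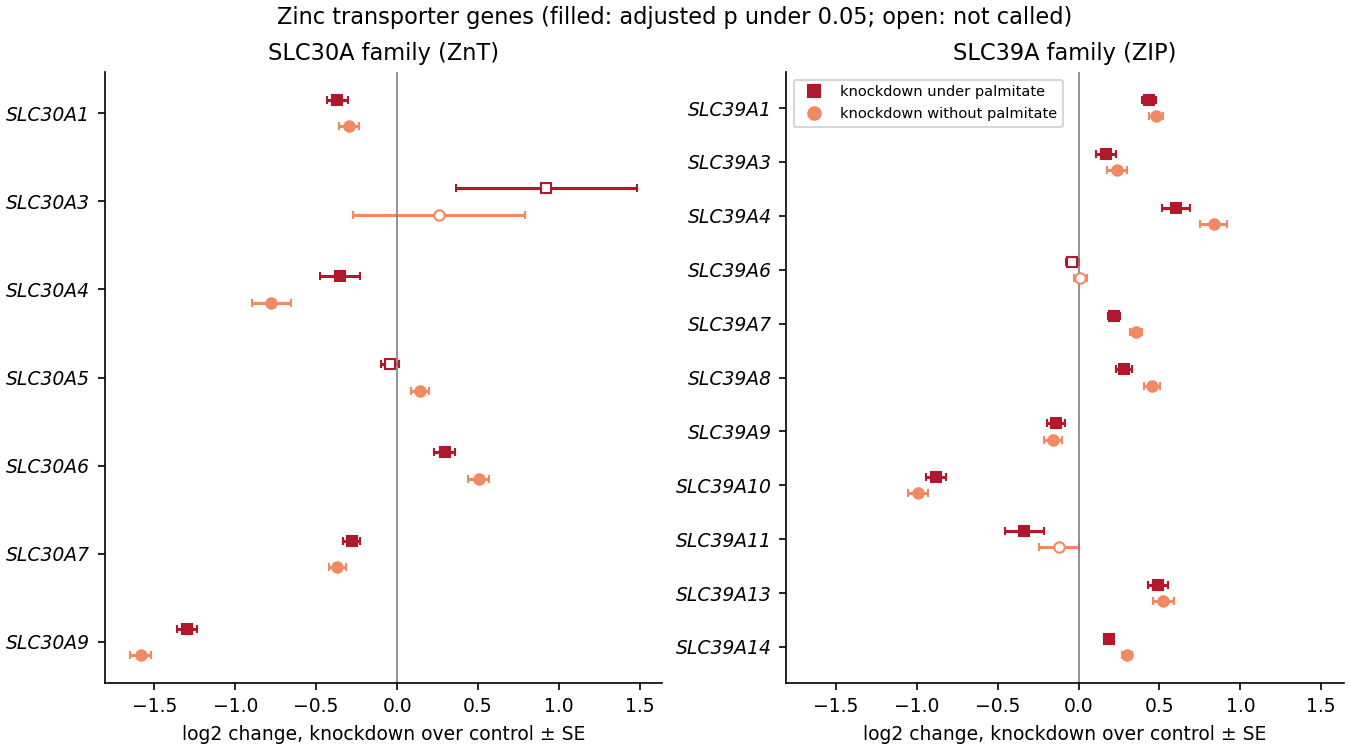
Log2 change with the knockdown (x axis, ± SE) of the measured zinc exporter genes (left) and importer genes (right), under palmitate (red squares) and without it (orange circles); filled symbols mark an adjusted p under 0.05 in edgeR's test. SLC30A9 lay at -1.30 and -1.58, and SLC39A10 at -0.88 and -0.99, apart from SLC39A1 at 0.43 and 0.48.

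With palmitate in knockdown cells 2 of the 6 ZnT genes were called higher and 0 lower, where 21.9% of all genes were called (12.1% higher). SLC30A9 rose by 0.28 (SE 0.07, adjusted p = 0.00681) and SLC30A7 by 0.16 (SE 0.05, adjusted p = 0.0330). The call of SLC30A9 was lost without shACSL5 replicate 3 (0.21, adjusted p = 0.0523). That of SLC30A7 was lost with library size alone, upper-quartile factors and only the 2 groups fitted, and without shACSL5 replicate 3 or shACSL5_PA replicate 1 or 2 (0.11 to 0.16, adjusted p = 0.0592 to 0.179). In control cells SLC30A6 rose by 0.26 (SE 0.07, adjusted p = 0.00602) and SLC30A4 fell by 0.41 (SE 0.12, adjusted p = 0.0108), which was lost without shControl_PA replicate 3 (-0.36, adjusted p = 0.0511). In the interaction, where 14.5% of all genes were called, 1 ZnT gene was called, SLC30A9 (0.29, SE 0.09, adjusted p = 0.0387), and 0 of the ZIP genes. The SLC30A9 interaction was lost in 8 of 19 alternatives, DESeq2 and leaving out shACSL5 replicate 3, shACSL5_PA replicate 1 or 2, shControl replicate 1 or 2 or shControl_PA replicate 2 or 3 (adjusted p = 0.0644 to 0.126).

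Metallothioneins also bind copper, and 11 copper-handling genes were all measured. With the knockdown 3 were called higher and 3 lower under palmitate, where 50.5% of all genes were called (24.4% higher). Without palmitate 6 were called higher and 3 lower, where 62.3% of all genes were called (29.7% higher). The copper pumps ATP7A and ATP7B, which move copper into the secretory pathway and out of cells, fell by 1.01 (SE 0.10, adjusted p = 1.29e-08) and 0.74 (SE 0.13, adjusted p = 5.47e-05) under palmitate. Without palmitate they fell by 1.42 (SE 0.10, adjusted p = 2.30e-11) and 1.52 (SE 0.13, adjusted p = 6.38e-10). SOD1, the copper-zinc superoxide dismutase, rose by 0.36 under palmitate (SE 0.04, adjusted p = 3.99e-08) and by 0.44 without it (SE 0.04, adjusted p = 8.04e-10). The copper chaperone ATOX1 rose by 0.26 under palmitate (SE 0.06, adjusted p = 0.000428) and SCO1, which delivers copper to cytochrome oxidase, by 0.39 without it (SE 0.06, adjusted p = 1.51e-05). With palmitate 1 of the 11 was called higher and 0 lower in knockdown cells, where 21.9% of all genes were called. This was the copper importer SLC31A1, at 0.24 (SE 0.04, adjusted p = 0.000192). In control cells 4 were called higher and 1 lower, where 28.7% of all genes were called (15.1% higher). SLC31A1 stood at 0.27 (SE 0.04, adjusted p = 3.41e-05) and COX11 at 0.22 (SE 0.05, adjusted p = 0.000868). SCO1 stood at 0.28 (SE 0.06, adjusted p = 0.0022) and ATP7B at -0.53 (SE 0.12, adjusted p = 0.00177). In the interaction ATP7B was called higher (0.79, SE 0.19, adjusted p = 0.00558) and COX11 lower (-0.19, SE 0.06, adjusted p = 0.0467), the second lost in 13 of 19 alternatives, 10 of which left out 1 library (all but shACSL5 replicate 3 and shControl_PA replicate 1), with adjusted p = 0.0505 to 0.150.

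Glucocorticoid-responsive genes were read beside the metallothioneins because both classes are known to answer to that hormone. Of 8 genes 7 were measured. With the knockdown 2 were called higher and 1 lower under palmitate, where 50.5% of all genes were called (24.4% higher). Without palmitate 4 were called higher and 2 lower, where 62.3% of all genes were called (29.7% higher). The median log2 change of the 7 was -0.03 under palmitate and 0.29 without it. Without palmitate KLF9 and TSC22D3 stood at -1.59 (SE 0.11, adjusted p = 2.00e-11) and -0.70 (SE 0.09, adjusted p = 1.91e-07). The receptor gene NR3C1 stood at 0.35 (SE 0.04, adjusted p = 2.52e-07) and DUSP1, a phosphatase with many other inducers, at 1.35 (SE 0.05, adjusted p = 1.81e-16). The means of the other genes measured were higher too. SGK1 stood at 46.7 CPM in shACSL5, against 35.6 CPM in shControl, PER1 at 16.9 against 13.9 CPM and FKBP5 at 65.1 against 60.5 CPM. Under palmitate KLF9 stood at -1.25 (SE 0.11, adjusted p = 3.57e-09), NR3C1 at 0.17 (SE 0.04, adjusted p = 0.00219) and FKBP5 at 0.19 (SE 0.05, adjusted p = 0.00307). With palmitate itself 2 were called higher and 1 lower in knockdown cells, where 21.9% of all genes were called. In control cells 2 were called higher and 2 lower, where 28.7% of all genes were called. SGK1 rose by 0.24 (SE 0.06, adjusted p = 0.00453) in knockdown cells and by 0.61 (SE 0.06, adjusted p = 6.29e-08) in control cells. PER1 fell by 0.58 in knockdown cells (SE 0.13, adjusted p = 0.00174) and TSC22D3 by 0.61 in control cells (SE 0.08, adjusted p = 9.45e-06). DUSP1 rose by 0.17 in knockdown cells (SE 0.04, adjusted p = 0.00667) and by 1.55 in control cells (SE 0.05, adjusted p = 1.38e-16). KLF9 fell by 0.33 in control cells (SE 0.10, adjusted p = 0.0156), which was lost without shControl replicate 3 or shControl_PA replicate 1 (-0.31 and -0.27, adjusted p = 0.0564 and 0.0926). In the interaction TSC22D3 was called higher (0.66, SE 0.12, adjusted p = 0.000771), and DUSP1 (-1.38, SE 0.06, adjusted p = 3.84e-12) and SGK1 (-0.38, SE 0.08, adjusted p = 0.0032) lower. The part of any of these genes in the metallothionein changes was not tested.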

How the data were processed

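PolyA RNA of 12 LM3 libraries was sequenced, and the authors deposited whole-number read counts per gene, with no normalization. The submitters' processing notes name GRCh38 and the tools HISAT2 2.1.0, fastp 0.22.0 and featureCounts, the last without a version. Annotation release, strand setting and handling of reads with several alignments are not stated there, and each can shift counts between related or overlapping genes. Sample titles gave each group and replicate number. The members and gene lists were chosen with earlier results of these data known. Of 57730 genes, 51928 matched a current symbol by identifier.

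Genes were kept with filterByExpr (14706 genes), counts scaled with TMM factors, and 1 model fitted to all 12 libraries in edgeR 4.0.16 (quasi-likelihood test in R 4.3.3, p adjusted by Benjamini-Hochberg, common dispersion 0.00203). The SE was obtained as the size of the log2 change over the root of F. The fit was tested on simulated data. The alternatives were RLE factors, upper-quartile factors, library size alone, no filter, DESeq2 1.42.0, limma 3.58.1 voom, only the 2 groups compared, a replicate block and leaving out each library. Within groups, replicate pairs differed by more than sampling noise (chi-square per degree of freedom 2.24 to 4.36), and all 12 were counted. This spread does not show whether the replicates came from separate cultures. Named list genes were the up to 4 called genes with the smallest p and a mean of at least 5 CPM per list and comparison. Exon lengths, positions and shared windows came from GENCODE 29 and promoters from RefSeq. Intervals of depth and floors cover counting error only.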

Additional observations from a re-analysis of the deposited data

Results flagged for a closer look

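Of the 7 measured genes 1, MT2A, was called in the test of whether the palmitate response differed between knockdown and control cells. Of all genes, 14.5% were called in that test. The rise of MT2A with palmitate was larger in shACSL5 than in shControl cells by 0.20 on the log2 scale (SE 0.05, adjusted p = 0.00781 by edgeR's quasi-likelihood test). The mean was 717 CPM in shACSL5_PA and 558 CPM in shACSL5, against 881 CPM in shControl_PA and 785 CPM in shControl. The value ran from 0.16 to 0.23 over the 19 alternatives, all of them called (adjusted p = 0.000187 to 0.0290). MT1E narrowly missed the threshold in the same test (-0.18, SE 0.06, adjusted p = 0.0521) and passed it in 10 of 19 alternatives.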

How the results depend on the processing

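Of 35 log2 changes of members, 29 kept their side of the threshold under every alternative run, and no called value changed sign. Of these 29, 3 that were not called changed sign on leaving out 1 library: MT1F with palmitate in knockdown cells (-0.03 to 0.48), MTF1 with the knockdown under palmitate (-0.0050 to 0.16) and SLC39A10 with palmitate in knockdown cells (-0.07 to 0.04). The other 6 were MTF1 in 3 comparisons, MT1F with the knockdown without palmitate, MT1E in the interaction and SLC39A10 with palmitate in control cells. SLC39A10 and MTF1 there passed with library size alone (-0.17, adjusted p = 0.0349, and -0.19, adjusted p = 0.0431, with up to 0.462 and 0.365 over their alternatives). Of 57 log2 changes of list genes, 48 kept their call throughout; the cause was not tested in any case. Counts of called genes stayed within 1.5 times the reported ones. On leaving out 1 library they ran from 8569 to 9243 for the knockdown without palmitate, from 6758 to 7483 under palmitate, from 3418 to 4324 for palmitate in control cells, from 2402 to 3226 in knockdown cells and from 1657 to 2138 for the interaction. Where this left 1 group with 2 libraries, the spread was pooled over all groups. Deviations of same-numbered replicates correlated at -0.04 to 0.08 in 18 pairs (median 0.01). In 36 differently numbered pairs they correlated at -0.08 to 0.08 (median -0.01). With 3 libraries per group this showed no clear pairing by number but cannot exclude one. With a replicate block 9197, 7489, 4302, 3363 and 2261 genes were called, in the order of comparisons just given. Without it the numbers were 9164, 7432, 4217, 3216 and 2139. The block moved 1 member across the threshold, MT1E in the interaction (adjusted p = 0.0341, 0.0213 to 0.159 over all alternatives). Depth limits MT1F, at 24 to 65 counts per library, and MT1G, at 0.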
